A study of Mus musculus with 6 samples.

Results

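The genes described here are 40 mouse genes of DNA double-strand break and mismatch repair, picked by symbol for their known roles in homologous recombination, the Fanconi anaemia pathway, end joining and mismatch repair. Of these, 38 had a measurement of their own among 51482 in the deposited table, and all 38 belonged to the 14575 measurements that the authors tested. Pms2 was measured only jointly with 2 overlapping genes, and Fanca was not analysed here. The RNA came from wild-type mouse embryonic fibroblasts immortalised with SV40, whose large T antigen binds and inactivates p53 and the retinoblastoma protein in both groups. The groups were 3 samples at 21% oxygen (normoxia) and 3 at 0.5% oxygen (hypoxia), each kept there for 16 h. The study concerns mTORC1, lipid signalling and the mitochondrial protease YME1L, and the comparison asks how transcript levels differ between the oxygen levels.

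Levels are given as FPKM, fragment counts scaled to transcript length and library size. Each group has a single value per gene, made by the authors from its 3 samples, so no SD can be given and the depth is unknown. The words rose and fell are kept for genes whose q-value in the authors' deposited table is below 0.05. The labels do not say whether samples of a group came from separate cultures, so the spread behind these q-values may be technical. In RNA from whole cultures, fewer cells of a type and less RNA per cell cannot be told apart.

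Breaks in both DNA strands are mended along competing routes. In homologous recombination the ends are cut back, BRCA2 and its partners prepare the exposed strand for pairing, and the sister chromatid is copied, which ties this route to S and G2 phase. In end joining the Ku ring caps the ends and DNA ligase IV seals them, at any time in the cell cycle. The Fanconi anaemia proteins clear crosslinks between the strands and hand the resulting breaks to recombination, and the proteins of mismatch repair correct errors of replication. Lower levels of recombination genes such as Brca1 have been described in several cell types under prolonged low oxygen.

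In these fibroblasts more of the repair genes rose than fell. Higher levels were called for 16 of the 38 tested genes (42.1%), lower levels for 6 (15.8%) and neither for 16. Over all tested measurements 57.9% were called, 28.9% as higher and 29.0% as lower in hypoxia, so the share called (22 of 38) equalled the share over all measurements and the balance of directions did not. On the scale of log2(FPKM + 1), the median difference of hypoxia from normoxia was 0.28 over the 38 genes and -0.0094 over all tested measurements. All 38 genes had a mean of at least 1 FPKM. Over the 12127 tested measurements with such a mean 62.9% were called, 32.1% as higher and 30.9% as lower (median 0.0027). Against these measurements the share called among the 38 genes was somewhat lower. Most changes were moderate. The fold change was 2 or more in 5 genes that rose (Rad51b, Rad51ap1, Blm, Rad52 and Nbn) and in 3 that fell (Lig4, Fancf and Xrcc5), where 9.03% of all tested measurements rose and 9.87% fell by that much. At a q below 0.01 there were 15 higher and 4 lower, against 24.5% and 24.2% of all tested measurements. The q of 14 genes was 0.000139, the smallest in the authors' deposited table, so q does not rank them. Expression spanned a wide range in both groups: the highest levels in normoxia were those of Xrcc6 (73.9 FPKM), Msh6 (54.4 FPKM) and Rad51ap1 (44.3 FPKM) and the lowest that of Prkdc (2.22 FPKM), whereas in hypoxia Rad51ap1 stood first at 115 FPKM and Fancf last at 0.950 FPKM.

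**Figure D1:**
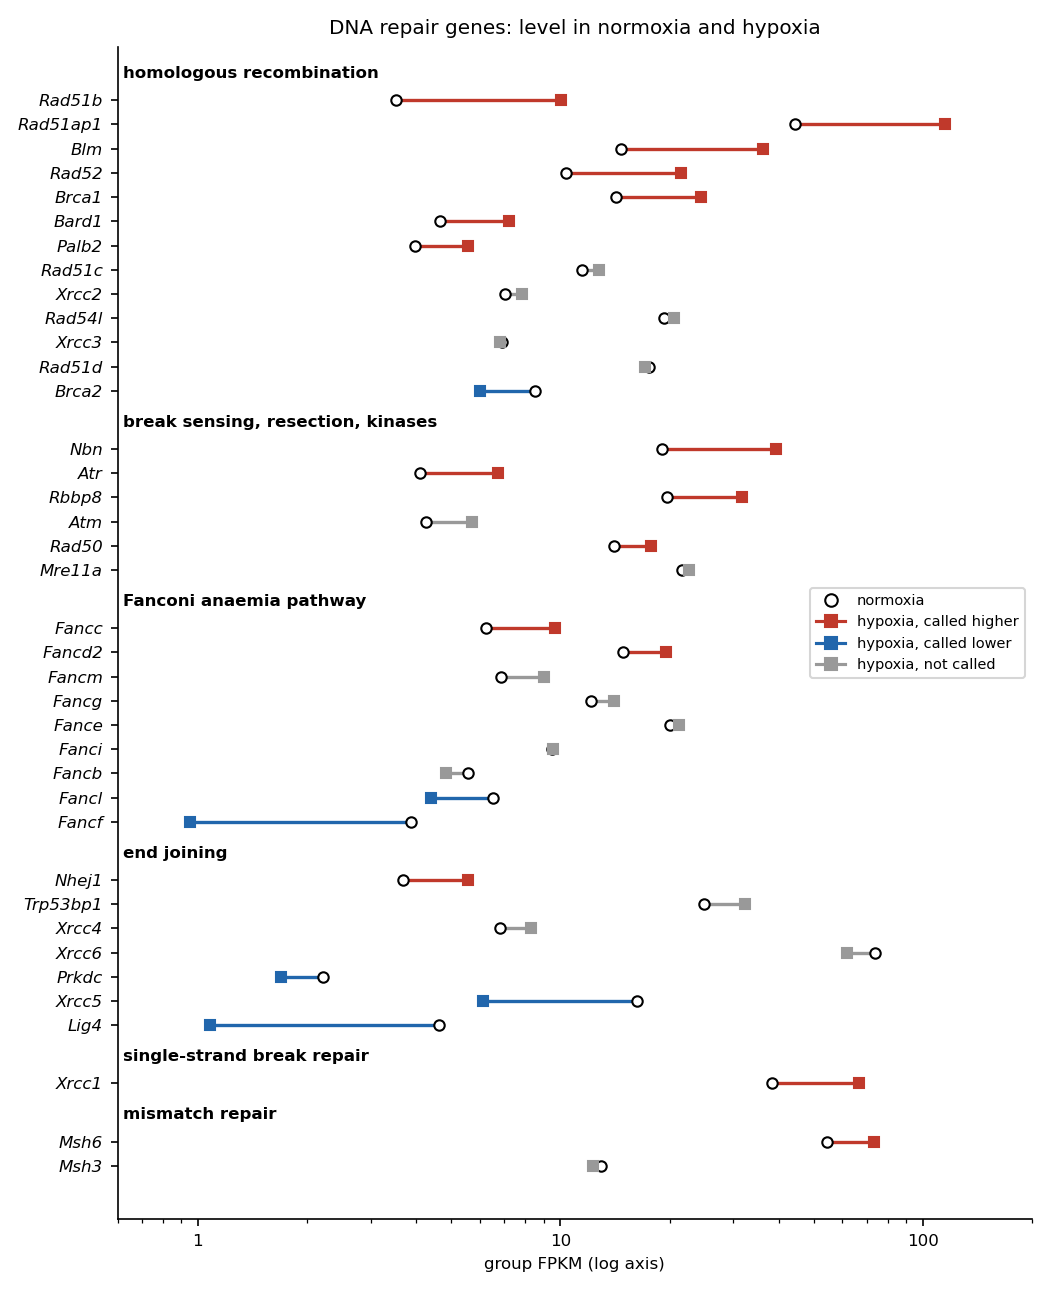
Group FPKM on a log axis of the 38 tested repair genes in normoxia (open circles) and hypoxia (squares), grouped by role and coloured by the authors' calls. Red lines dominate in homologous recombination, where Rad51ap1 moves from 44.3 to 115 FPKM, and the longest blue lines belong to Lig4 (4.64 to 1.08 FPKM) and Fancf (3.86 to 0.950 FPKM).

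The upstream sequences of 5 called genes are shown, because genes of the same repair routes moved in opposite directions. These are the 250 bases before the RefSeq start, 5′ to 3′ on the gene's strand, on GRCm38, for the 3 genes that rose most and the 2 that fell most among called genes whose window holds no annotated exon and lies within 100 bases of the annotated gene start. Capitals mark the core of the hypoxia response element (ACGTG or GCGTG, bound by the hypoxia-inducible factors) and matches to the E2F element (TTTCCCGC, TTTGGCGC, TTTCGCGC or TTTGCCGC, bound by the factors that drive S phase genes). Both motifs were searched on both strands, so a match on the reverse strand appears as its reverse complement.
Rad51b (rose, chr12:79297032-79297281, plus strand): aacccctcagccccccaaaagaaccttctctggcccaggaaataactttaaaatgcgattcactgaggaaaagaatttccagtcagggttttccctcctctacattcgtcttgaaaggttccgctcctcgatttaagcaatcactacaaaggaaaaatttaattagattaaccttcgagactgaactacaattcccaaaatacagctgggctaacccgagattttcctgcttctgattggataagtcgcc
Rad51ap1 (rose, chr6:126939588-126939837, minus strand): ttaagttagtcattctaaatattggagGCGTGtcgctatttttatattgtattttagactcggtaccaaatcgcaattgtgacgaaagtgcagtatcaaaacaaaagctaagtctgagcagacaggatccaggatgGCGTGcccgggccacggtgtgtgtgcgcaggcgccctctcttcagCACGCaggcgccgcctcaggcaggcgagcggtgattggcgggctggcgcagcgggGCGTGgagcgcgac
Nhej1 (rose, chr1:75125227-75125476, minus strand): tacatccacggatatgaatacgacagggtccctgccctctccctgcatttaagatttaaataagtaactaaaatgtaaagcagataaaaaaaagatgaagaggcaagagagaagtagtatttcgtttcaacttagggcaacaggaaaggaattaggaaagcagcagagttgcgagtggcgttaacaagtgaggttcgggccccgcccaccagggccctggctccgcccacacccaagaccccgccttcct
Xrcc5 (fell, chr1:72307171-72307420, plus strand): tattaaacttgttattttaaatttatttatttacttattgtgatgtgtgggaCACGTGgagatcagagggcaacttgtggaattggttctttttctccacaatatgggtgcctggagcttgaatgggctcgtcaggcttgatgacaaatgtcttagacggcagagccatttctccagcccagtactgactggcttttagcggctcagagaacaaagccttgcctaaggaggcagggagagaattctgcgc
Brca2 (fell, chr5:150522371-150522620, plus strand): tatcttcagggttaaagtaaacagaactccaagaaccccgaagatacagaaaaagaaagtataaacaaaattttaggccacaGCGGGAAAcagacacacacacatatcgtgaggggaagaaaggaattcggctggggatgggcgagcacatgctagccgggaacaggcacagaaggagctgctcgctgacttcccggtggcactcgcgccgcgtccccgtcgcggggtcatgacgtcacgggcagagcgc
The Nhej1 window lies upstream of its first exon, which the tested measurement does not cover. The Rad51ap1 window holds 4 hypoxia element cores and those of Rad51b and Nhej1 hold 0. Rad51b has another RefSeq window, not shown, with a core at position 19 after its start. The counts below take all windows of a gene, so Rad51b is among the genes with a core there. The Xrcc5 window, of a gene that fell, holds 2 overlapping cores on opposite strands in the palindrome CACGTG. The Brca2 window holds 1 E2F match. A match is a description of the letters and no sign that a factor binds there.

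RefSeq windows from 250 bases before to 50 after the start were at hand for 33 of the 40 genes. A hypoxia element core lay in 22 of these 33 genes (66.7%), against 46.7% of 27025 genes with such a window. The 27025 genes were not limited to genes tested or expressed here. The shares of all genes in this paragraph are therefore those of an unlike set. The core lay in 10 of the 12 genes with a window that rose and in 2 of the 5 that fell. No window was at hand for Rad50, Nbn, Rbbp8 and Fancd2, which rose, and for Prkdc, which fell. Whether a core goes with the direction of change was not tested. An E2F match lay in 7 of 33 genes (21.2%) against 2.60% of all genes, in 2 of 12 that rose and 1 of 5 that fell. The CCAAT box (CCAAT) was found in 20 of 33 (60.6%, against 41.1%), and the cell cycle homology region (TTTGAA) in 2 of 33 (6.06%, against 20.2%). Member windows were richer in G and C, with a median of 58.8% over the 250 upstream bases against 52.4% over all windows, which bears on the counts of GC-rich motifs. From 100 bases before to 50 after the start the hypoxia element core lay in 20 of 33 genes, against 32.2% of all genes.

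Homologous recombination is represented by 13 tested genes, of which 7 rose (53.8%), 1 fell (7.69%) and 5 stayed uncalled. Beside these shares, 28.9% of all tested measurements rose and 29.0% fell. The median difference of the 13 genes on the log2(FPKM + 1) scale was 0.40. The largest rise of all 38 genes was that of Rad51b, which encodes a strand exchange mediator that acts on single-stranded DNA (chromosome 12, 79297282 to 79814690 on GRCm38). Its level went from 3.51 to 10.04 FPKM, 2.86-fold. Rad51ap1, whose product promotes invasion of the partner duplex (chromosome 6, 126923050 to 126939587), rose 2.59-fold from 44.3 to 115 FPKM. Blm, the gene of the Bloom helicase that takes joined recombination intermediates apart, rose 2.46-fold from 14.7 to 36.1 FPKM. Rad52, whose product anneals single strands, went from 10.4 to 21.5 FPKM (2.07-fold). These 4 had the largest fold changes of the recombination genes, and none belongs to the BRCA proteins.

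The BRCA genes did not move as one. Brca1 (chromosome 11, 101488764 to 101551955) rose from 14.3 to 24.5 FPKM (1.72-fold), and Bard1, which encodes the partner with which BRCA1 forms a ubiquitin ligase, from 4.67 to 7.20 FPKM (1.54-fold). Palb2, the gene of the protein that bridges BRCA1 and BRCA2, rose from 3.98 to 5.57 FPKM (1.40-fold, q = 0.00698 in the authors' deposited table). Brca2 (chromosome 5, 150522630 to 150570329), the gene of a mediator of strand exchange, was the only recombination gene of the 13 to fall. It went from 8.53 to 5.99 FPKM (1.42-fold, q = 0.0300 in the authors' deposited table), a call that a threshold of 0.01 would not keep. As FPKM is scaled to transcript length, levels of different genes can be set side by side: Brca1 stood at 3.05 times the level of Bard1 in normoxia and 3.40 times in hypoxia.

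The genes of the other proteins of the mediator family to which RAD51B belongs were not called. Rad51c stood at 11.5 and 12.8 FPKM in normoxia and hypoxia (q = 0.255), Rad51d at 17.6 and 17.1 FPKM (q = 0.810), Xrcc2 at 7.04 and 7.82 FPKM (q = 0.284) and Xrcc3 at 6.89 and 6.79 FPKM (q = 0.960), all q-values from the authors' deposited table. RAD51B, RAD51C, RAD51D and XRCC2 form 1 complex, and the level of Rad51d over that of Rad51b went from 5.004 to 1.706 between the groups. Rad54l, which encodes a motor protein that remodels duplexes during strand exchange, was at 19.4 and 20.6 FPKM (q = 0.625 in the authors' deposited table).

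Of the 6 genes for break sensing, end resection and signalling kinases 4 rose and none fell, beside 28.9% and 29.0% of all tested measurements. At an unadjusted p below 0.05 in the authors' deposited table none was lower either, since all 6 had the higher value in hypoxia. In the MRN complex, which binds broken ends first, the members differed. Nbn (chromosome 4, 15957925 to 15992589) rose 2.07-fold from 19.1 to 39.4 FPKM, Rad50 rose 1.27-fold from 14.0 to 17.7 FPKM, and Mre11a, the nuclease gene, was at 21.7 and 22.6 FPKM (q = 0.716 in the authors' deposited table). The level of Mre11a was 1.13 times that of Nbn in normoxia and 0.574 times in hypoxia. Rbbp8, which encodes CtIP, the factor that starts resection with MRN, rose from 19.6 to 31.7 FPKM (1.62-fold). The kinase gene Atr, whose product answers to exposed single strands and stalled forks, rose from 4.11 to 6.74 FPKM (1.64-fold). Atm, the gene of the kinase that answers to double-strand breaks, went from 4.25 to 5.70 FPKM and lay just outside the threshold with a q of 0.05005 in the authors' deposited table.

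The Fanconi anaemia genes were evenly divided. Calls were made for 4 of the 9 tested genes (44.4%, against 57.9% of all tested measurements), 2 in each direction. The median difference was 0.082. In the nuclear core complex, which attaches ubiquitin to the FANCD2 and FANCI clamp, Fancf (chromosome 7, 51860577 to 51862267) fell most, from 3.86 to 0.950 FPKM (4.06-fold). Fancl, which encodes the ubiquitin ligase subunit, fell from 6.51 to 4.41 FPKM (1.48-fold) and lay just inside the threshold (q = 0.0463 in the authors' deposited table). Fancc, another core gene, rose from 6.24 to 9.65 FPKM (1.55-fold, q = 0.0105 in the authors' deposited table). The other core genes stayed within 1.31-fold and were not called. Fancb was at 5.57 and 4.83 FPKM (q = 0.0952), Fance at 20.1 and 21.3 FPKM (q = 0.649), Fancg at 12.1 and 14.1 FPKM (q = 0.169) and the translocase gene Fancm at 6.88 and 8.99 FPKM (q = 0.126), with q from the authors' deposited table. Of the clamp itself, Fancd2 rose from 14.9 to 19.6 FPKM (1.31-fold), and Fanci was at 9.51 and 9.53 FPKM (q = 0.984 in the authors' deposited table). Exons of Fancf, Fancl, Fancc and Fanci overlap exons of genes on the opposite strand over 15.0%, 13.7%, 16.4% and 16.0% of their length. The library kit marks strand, but the sources used here do not say whether the authors' counting used it, so these levels are uncertain to that extent. The same holds for Rad54l (15.4%) and Trp53bp1 (15.0%).

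End joining was the only role of several genes in which falls outnumbered rises: 3 of the 7 tested genes fell, 1 rose and the other 3 were uncalled (median -0.26). The shares were 42.9% lower and 14.3% higher, against 29.0% and 28.9% of all tested measurements. Lig4 (chromosome 8, 9969049 to 9977686), the gene of the ligase that seals the ends, fell from 4.64 to 1.08 FPKM, at 4.28-fold the largest fall of the 38 genes. Xrcc5 (chromosome 1, 72307421 to 72394952), which encodes Ku80, fell from 16.3 to 6.12 FPKM (2.66-fold). Its partner Xrcc6, the Ku70 gene, was at 73.9 and 61.6 FPKM and was not called (q = 0.0641 in the authors' deposited table). The level of Xrcc6 over that of Xrcc5 went from 4.53 to 10.1 between the groups. The encoded proteins act as a heterodimer. Prkdc, the gene of the large kinase that Ku recruits, fell from 2.22 to 1.70 FPKM (1.31-fold, q = 0.000395 in the authors' deposited table).

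Neither of the genes for the ligase's partners fell. Xrcc4, which encodes its obligate binding partner, was at 6.82 and 8.31 FPKM (q = 0.505 in the authors' deposited table), and the level of Xrcc4 over that of Lig4 went from 1.47 to 7.67. Nhej1, the gene of the XLF protein that aligns ends beside XRCC4, rose from 3.67 to 5.57 FPKM (1.52-fold). That measurement ends short of the annotated start of Nhej1 (chromosome 1, 75125200), and a second, untested row at the first exon is listed at 0 in both groups. Trp53bp1, whose product 53BP1 shields ends from resection and so favours end joining over recombination, was at 24.9 and 32.3 FPKM (q = 0.0580 in the authors' deposited table). In single-strand break repair the scaffold gene Xrcc1 (chromosome 7, 24546289 to 24573440), the only gene of this role among the 40, rose from 38.4 to 66.6 FPKM (1.74-fold).

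Of the mismatch repair genes with a measurement of their own, Msh6 rose and Msh3 was not called. Msh6, whose product recognises single mispaired bases, went from 54.4 to 73.1 FPKM (1.35-fold, q = 0.000518 in the authors' deposited table). Msh3, whose product recognises longer loops, was at 13.0 and 12.3 FPKM (q = 0.777 in the authors' deposited table). The joint measurement of Pms2, Gm42421 and Rsph10b rose from 13.3 to 23.7 FPKM (1.78-fold), and how much of it is Pms2, the gene of an endonuclease subunit, cannot be told apart.

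Other genes of the same pathways, taken from lists of known repair factors, did not share one direction. Of 36 tested genes on the list of other recombination and resection factors 6 rose (16.7%) and 11 fell (30.6%), with a median of -0.055. The share that fell was close to the 29.0% over all tested measurements, and the share that rose was below their 28.9%. Among the 13 recombination genes above more rose than fell. Of the helicase genes, Recql fell from 21.7 to 8.05 FPKM and Recql5 from 6.96 to 3.25 FPKM. Swsap1, a recombination factor gene, fell from 4.85 to 2.19 FPKM, and Gen1, which encodes a resolvase of Holliday junctions, from 7.23 to 3.41 FPKM. Mms22l, which acts at stalled forks, rose from 22.0 to 42.5 FPKM, and Sfr1, a gene of the SWI5-SFR1 recombination cofactor, from 154 to 245 FPKM.

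Other Fanconi anaemia and crosslink repair genes rose in 9 (40.9%) and fell in 6 (27.3%) of 22 cases (median -0.00060). Over all tested measurements 28.9% rose and 29.0% fell. The crosslink repair list held the largest fold change of these further repair lists. Ube2t, which encodes the ubiquitin-conjugating enzyme that works with FANCL, rose 4.19-fold from 21.3 to 89.2 FPKM, beside the fall of Fancl. The translesion polymerase gene Polk rose 3.00-fold from 5.13 to 15.4 FPKM. Faap24, the gene of the partner of FANCM, fell from 6.38 to 2.18 FPKM, and the nuclease gene Dclre1b from 6.16 to 2.26 FPKM. Other end joining genes rose in 6 (27.3%) and fell in 8 (36.4%) of 22 cases (median 0.088). DNA ligase III (Lig3, 28.6 to 12.3 FPKM), the histone variant gene H2afx (139 to 60.8 FPKM) and Parp3 (16.8 to 7.39 FPKM) fell, and Tdp2 (30.4 to 65.5 FPKM), whose product removes trapped topoisomerase II, and the acetyltransferase gene Kat5 (33.7 to 52.0 FPKM) rose. H2afx is a single-exon histone gene.

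On a list of other mismatch repair genes, genes of the same families and replication factors used in mismatch repair, 8 of 20 rose and 3 fell (median 0.19). Pold1, the catalytic subunit gene of DNA polymerase delta, rose from 51.6 to 75.4 FPKM. The subunit gene Pold4 rose from 0.186 to 0.422 FPKM, a low level in both groups. The exonuclease gene Exo1 fell from 28.4 to 19.6 FPKM, and Msh5, listed by its gene family, from 1.92 to 1.24 FPKM. Damage checkpoint genes rose in 9 (34.6%) and fell in 4 (15.4%) of 26 cases (median 0.035). Smc6 and Smc5, which form the core of a complex that resolves recombination intermediates, rose from 49.1 to 101 FPKM and from 41.6 to 75.02 FPKM. The cohesin gene Smc3 rose from 62.2 to 110 FPKM and the phosphatase gene Cdc25b from 67.4 to 113 FPKM, and Rad1 (16.9 to 12.3 FPKM) and Timeless (40.4 to 31.2 FPKM) fell. In base and nucleotide excision repair 7 of 39 genes rose (17.9%) and 14 fell (35.9%), with a median of -0.086. Lig3 is on this list too; Ogg1, the gene of the glycosylase for oxidised guanine, fell from 19.6 to 9.44 FPKM and the helicase gene Ercc3 from 25.01 to 13.3 FPKM, whereas Mbd4 (8.62 to 15.9 FPKM) and Ercc5 (7.56 to 13.7 FPKM) rose. Over the 262 tested measurements outside the 38 genes that carry the term "DNA repair" in the deposited table, 33.2% rose and 26.3% fell. Over all tested measurements these shares were 28.9% and 29.0%.

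**Figure D2:**
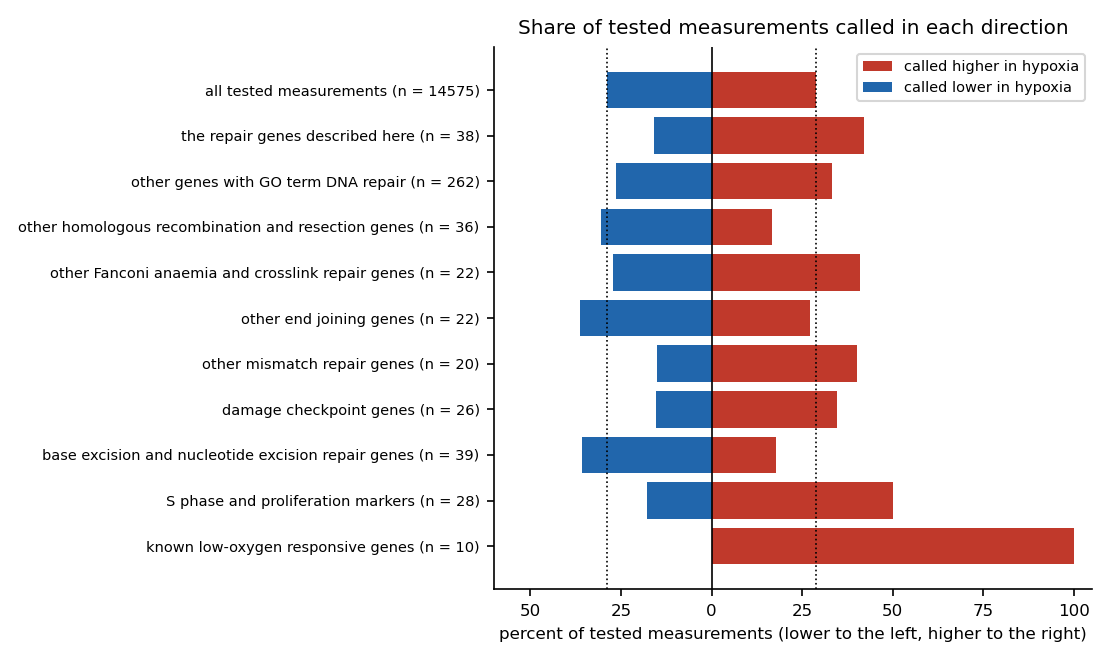
Percent of tested measurements that the authors called higher (red, to the right) or lower (blue, to the left) in hypoxia, for all measurements, the 38 repair genes and other gene lists, with n in brackets and dotted lines at the shares over all measurements. The 38 genes reach 42.1% higher and 15.8% lower, whereas the excision repair list leans to the left with 17.9% higher and 35.9% lower.

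Levels of many recombination genes depend on the cell cycle, so genes of proliferation are given beside them. S phase and proliferation markers leaned upward, with 14 of 28 tested genes higher and 5 lower (median 0.24). E2f1 rose from 24.4 to 68.3 FPKM, Mki67 from 71.4 to 145 FPKM and Bub1 from 36.8 to 79.0 FPKM, and Ccne1, the gene of cyclin E1, fell from 12.3 to 3.50 FPKM and Tyms from 130 to 76.1 FPKM. The part of the cell cycle in the repair gene levels was not tested. The 10 known low-oxygen genes on the control list all rose. Of 10 fibroblast markers 9 were at 1 FPKM or more in both groups, 6 fell (Col1a2, Col3a1, Fbn1, Pdgfrb, Thy1 and Dcn) and 2 rose. Their summed level went from 2333 to 3674 FPKM through those 2, Vim (883 to 2249 FPKM) and Fn1 (448 to 649 FPKM). The 5 epithelial markers summed to 369 and 473 FPKM. Of these Krt18 rose from 313 to 443 FPKM, Krt8 (28.3 to 10.1 FPKM), Krt14 (15.9 to 10.8 FPKM) and Cdh1 (5.93 to 3.76 FPKM) fell, and Epcam was uncalled at 5.97 and 5.22 FPKM. Of 5 blood markers Cd68 rose from 1.32 to 2.27 FPKM, and the other 4 were under 0.1 FPKM in both groups, as were all 4 endothelial markers. Neural Map2 rose from 3.86 to 7.42 FPKM, and muscle Des was uncalled at 11.04 and 9.46 FPKM. The other neural markers, Gfap (0.102 and 0.0201 FPKM) and Sox10 (0.00969 and 0 FPKM), were not tested. Muscle Myod1 was at 0 FPKM in both groups, and muscle Acta1 had no measurement of its own. The part of the cell types behind these markers in the repair gene levels was not tested.

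Many of the repair genes share a promoter region with a neighbour. A protein-coding gene on the opposite strand started within 1000 bases of the start in 16 of the 38 genes (42.1%), against 15.9% of 11669 tested protein-coding genes. In 14 of these pairs the neighbour was tested as well. Both genes were called in 4 pairs, 3 times in the same direction and 1 time in opposite directions, and 1 gene was called in 7 pairs. Over all 813 such pairs 34.2% had both genes called, and 62.2% of those moved in the same direction.

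The sharpest contrast lay between Mre11a and Ankrd49, whose starts are 104 bases apart. Ankrd49 fell 9.21-fold from 7.22 to 0.784 FPKM, whereas Mre11a was at 21.7 and 22.6 FPKM. Prkdc fell while Mcm4, a replication helicase gene with a start 489 bases away, rose from 87.7 to 104 FPKM. Brca1 rose together with the autophagy receptor gene Nbr1 (42.7 to 60.7 FPKM), Palb2 with the dynactin gene Dctn5 (38.4 to 45.5 FPKM), and Lig4 fell with Abhd13 (10.7 to 8.27 FPKM), which starts 21 bases away and fell 1.299-fold. Npat, beside Atm, rose from 8.93 to 15.6 FPKM, and Zfyve21, beside Xrcc3, from 30.1 to 55.3 FPKM. The neighbours Emc3 (Fancd2), D6Wsu163e (Rad51ap1), Zfyve26 (Rad51b), Mospd2 (Fancb), Tmem167 (Xrcc4) and Desi1 (Xrcc6) were not called. Aimp2, which starts 117 bases from Pms2, rose from 41.0 to 97.2 FPKM. Tex14 (Rad51c) and Pinlyp (Xrcc1) stayed below 0.1 FPKM in both groups and were not tested. The neighbours of Atr, Fancm and Rad52 that are not annotated as protein-coding were not tested either.

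**Figure D3:**
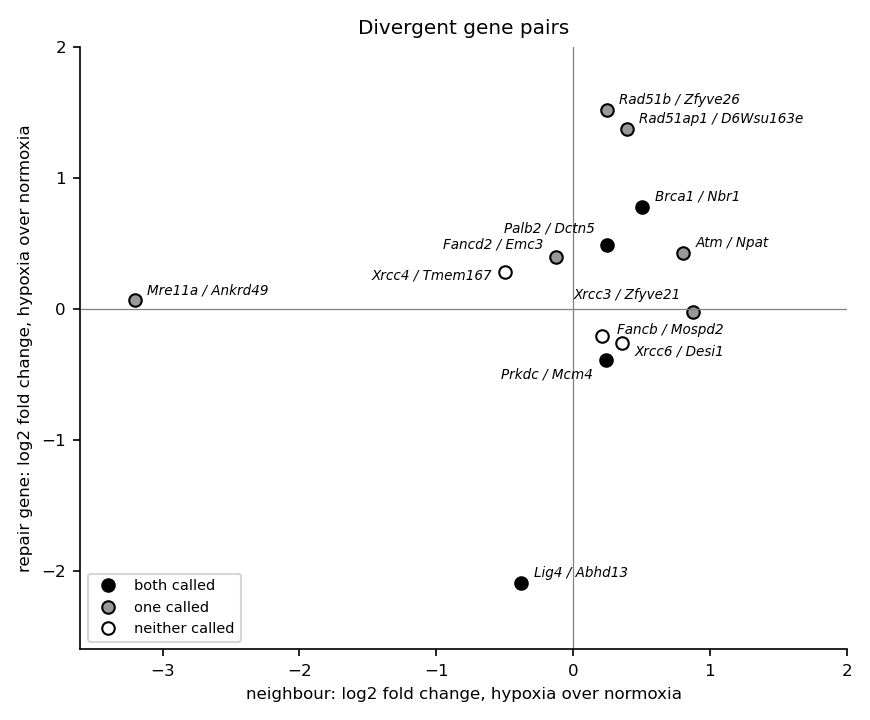
Log2 fold change of the repair gene (vertical axis) against that of the gene starting within 1000 bases on the opposite strand (horizontal axis) for the pairs named in the text in which both were tested, filled by how many of both genes the authors called. Mre11a / Ankrd49 lies far to the left at -3.20 and 0.064, and Lig4 / Abhd13 lies far down at -0.38 and -2.10.

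The 38 genes also differed in gene structure. By the longest annotated transcript, Fancf has 1 exon, Lig4 2 and Xrcc2 3, and the genes with 1 and 2 exons were those with the largest falls. Over all tested protein-coding genes, those with 1 exon were called lower in 48.9% and higher in 16.9% of 331 cases, and those with 2 exons lower in 41.4% and higher in 25.4% of 555 cases. Among 1546 genes with more than 20 exons 26.3% were lower and 33.7% higher. The median difference in log2(FPKM + 1) went from -0.27 at 1 exon to 0.043 above 20 exons. Xrcc5, the third largest fall, has 21 exons and Prkdc 86, so not all falls were in genes of few exons. Exon number was examined after the values of Fancf and Lig4 were seen. Across the 38 genes the log2 fold change had a Pearson correlation of 0.37 with log10 exon number (Spearman 0.11), 0.40 with log10 gene span (0.25), -0.040 with log10 transcript length (-0.082) and 0.46 with log10 mean FPKM (0.35). Over 11673 tested protein-coding genes the Pearson correlations were 0.106 with exon number, 0.120 with span, 0.0517 with transcript length and 0.138 with mean FPKM, on the same log10 scales. The Spearman correlations over these genes were 0.102, 0.131, 0.0700 and 0.161 in the same order. By rank, the value for exon number was thus close to that of the 38 genes. The values for the 38 genes describe genes of the same libraries, which are not independent replicates.

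**Figure D4:**
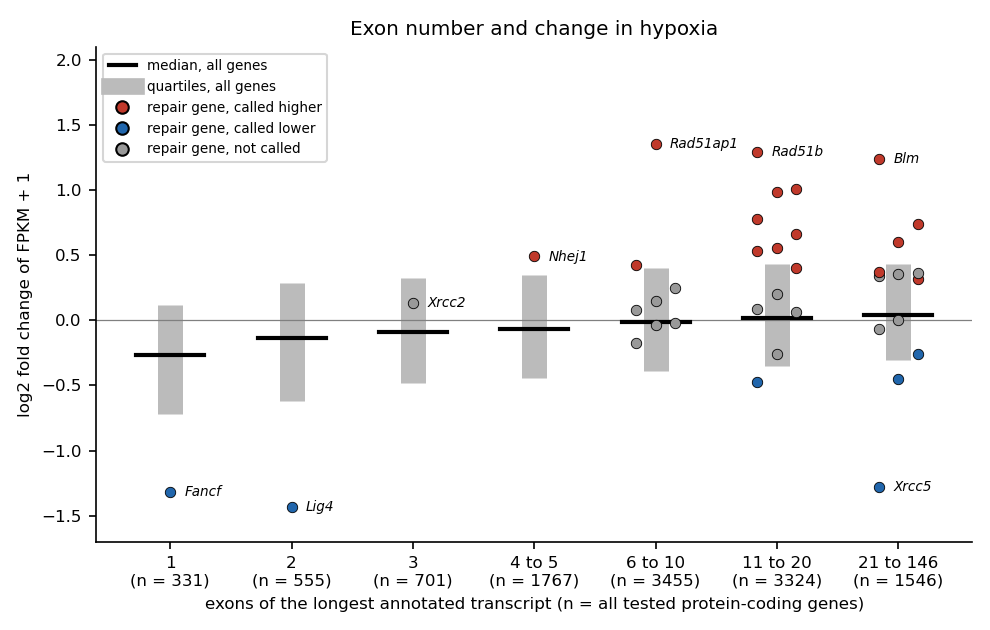
Difference of hypoxia from normoxia in log2(FPKM + 1) by exon number of the longest annotated transcript, with medians (black) and quartiles (grey) over all tested protein-coding genes and the 38 repair genes as points coloured by the authors' calls. The median over all genes is -0.27 at 1 exon and 0.043 above 20 exons, and Fancf and Lig4 lie below the lower quartile of their groups.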

How the data were processed

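The tools named per the submitters' processing notes are Cuffdiff 2.2.1, Cufflinks, HISAT2 2.1.0 and StringTie 1.3.4d, and the build is GRCm38. The authors deposited 1 table with an FPKM per gene and group, the log2 fold change, a test score that was left unused and the p-value and q-value of their comparison, per the file headers. No source used here states the scaling between libraries. A measurement listed under more than 1 identifier was taken once, and the deposited log2 values equalled the log2 ratio of the FPKM columns to within 1.2e-05. Calls are the authors', at q below 0.05. Medians use log2 of FPKM + 1. No test between replicates was possible, so none was run and the tests planned for samples were not used. Members and lists were chosen with earlier results of these data known. Named were all members, their divergent neighbours and, from each further list, up to 4 called genes of largest change and up to 2 against the majority. Gene structure came from GENCODE M21, promoter windows from RefSeq (GRCm38.p6). Some genes of these lists, 1 of the 14 tested neighbours among them, are counted but not reported by name here. Counting was tested on simulated data, with Python 3.11.15 and pandas 2.3.3.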

Additional observations from a re-analysis of the deposited data

How the results depend on the processing

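No paired analysis was possible because the deposited table holds 1 value per group, and for the same reason no replicate was left out and no other count test was run. Calls rest on the authors' q-values, which a rescaling or a pseudocount cannot alter. The median of the 38 genes was 0.30 after rescaling by the median of ratios (a shift of -0.013 in log2), 0.31 with a pseudocount of 0.1, 0.28 with a filter of 1 FPKM and 0.32 with the joint measurement of Pms2. The filter of 1 FPKM removed none of the 38 genes, so its median and its 16 higher and 6 lower genes could not differ. The joint measurement made it 17 higher and 6 lower. Roles and further lists were not run with the filter or the joint measurement. Leaving out 6 genes whose exons overlap another gene by at least 10%, a choice made after seeing the data, gave 15 higher and 4 lower of 32 and a median of 0.33. With a mean of at least 5 FPKM 14 were higher and 3 lower. Lig4, Prkdc and Fancf, called lower, and Palb2 and Nhej1, called higher, had means under 5 FPKM. At a q below 0.01 the recombination genes had 0 lower and the Fanconi anaemia genes 1 higher and 1 lower. With a 2-fold minimum the 38 genes had 5 higher and 3 lower. By role the recombination genes then had 4 higher and 0 lower, break sensing 1 higher and 0 lower, and the Fanconi anaemia genes 0 higher and 1 lower. End joining had 0 higher and 2 lower, and single-strand break repair and mismatch repair had 0 in either direction. Of the further lists, recombination and resection had 0 higher and 4 lower, crosslink repair 2 and 3, end joining 1 and 3, mismatch repair 1 and 0, checkpoint 1 and 0, excision repair 0 and 2, and the S phase markers 3 and 1. Among single genes, a q below 0.01 ended 3 calls (Brca2, Fancc and Fancl), and 14 of the 22 calls were under 2-fold. The fall with few exons was as large with a filter of 1 FPKM (57.1% of 224 genes with 1 exon called lower). Depth is unknown, so the precision of low levels, such as those of Fancf and Lig4 in hypoxia and of Prkdc, could not be given.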
